A study of Daphnia magna with 2 samples.

Results

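The cells described here are single-cell barcodes of the water flea Daphnia magna in which a UMI (unique molecular identifier, the tag that counts an RNA molecule once) was found for at least 2 of 5 genes. The 4 described here are CASZ1/CAS (DAPMA1EVG025637), GRIP2/GRIP (DAPMA1EVG020346), ROR1/ROR (DAPMA1EVG011614) and MAF/TJ (DAPMA1EVG018308). The barcodes are called members, and the 5 genes are called the rule genes. Genes are written as in the files, with the human symbol before the slash and the fly symbol after it. The rule was met by 325 of the 4352 barcodes that held at least 500 UMIs. Of these, 124 of 2253 were in the mixed sample and 201 of 2099 in the young sample.

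The study sampled whole Daphnia magna kept under a standard laboratory protocol. The mixed sample is labelled for male, female, young and old animals together, and the young sample for young animals. For both, whole bodies were taken apart with collagenase (4 mg/ml), and inDrops, a droplet method, gave each cell's polyA RNA a barcode. The series was prepared so that sexes, ages, and head and body could be compared. Each group has 1 sample, the number of animals behind a sample is not given in the sources used here, and no strain, treatment or genetic change is named. Every barcode carries a library code. The 7 codes of the mixed sample are FO1, FO2, FYB, FYH, F4W, MY1 and MY2, and the 3 of the young sample are CH1, CH2 and Y2. The lists do not spell the codes out, so no code was read as a sex, an age or a body part.

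Castor, the fly counterpart of CASZ1, is a zinc-finger transcription factor known for marking a late time window of neural progenitors and for its role in follicle stem cells of the fly ovary. Traffic jam, a relative of the vertebrate MAF factors, is known from the somatic cells of the fly gonad and also acts in neurons. GRIP is a scaffold protein with PDZ domains that guides muscle cells in fly embryos, and ROR is a receptor tyrosine kinase that binds Wnt ligands. Because these roles point to different tissues, no cell type was named from them.

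Kept barcodes held 2779211 UMIs in the mixed sample and 2314350 in the young sample, out of 8297129 and 12067158 UMIs in the matrices. Members were deeper than the rest: the median was 1401 UMIs in mixed members against 921 in the other mixed barcodes, and 1333 UMIs in young members against 795 in the other young barcodes. A deeper barcode has more chances to show a rule gene. After every barcode was thinned to 500 UMIs, the median was 358.5 genes in mixed members against 357 in the other mixed barcodes, and 368 genes in young members against 323 in the other young barcodes. Barcode sequences are not part of the lists, so barcodes shared between libraries could not be counted, and doublets were not removed. Over 3000 UMIs were held by 9 of the 124 mixed members and 6 of the 201 young members.

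Among the rule genes, CAS had a UMI in 39.5% of mixed members and 73.1% of young members. ROR was seen in 62 of 124 mixed members and 64 of 201 young members (31.8%), GRIP in 46.8% of mixed and 37.8% of young members, and TJ in 27.4% of mixed and 40.8% of young members. CAS and TJ were present together in 13 of 124 mixed members and in 54 of 201 young members. All 5 genes were found together in 2 barcodes of each sample. These values chose the members and carry no test.

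Outside the members, CAS, GRIP, ROR and TJ each had a UMI in between 0.470% (TJ) and 2.30% (GRIP) of the other mixed barcodes and between 1.90% (ROR) and 2.95% (TJ) of the other young barcodes. Exactly 1 rule gene was seen in 232 mixed and 269 young barcodes, which lie just outside the rule, and exactly 2 in 79 mixed and 111 young barcodes, which lie just inside it. In barcodes of at least 100 but under 300 UMIs, read here as background, the 5 genes together took 181 CPM (UMIs of a gene per 1000000 UMIs of the sum) in the mixed sample and 129 CPM in the young sample.

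Members made up 5.50% of the kept mixed barcodes (exact Clopper-Pearson 95% interval 4.60 to 6.53%) and 9.58% of the kept young barcodes (8.35 to 10.9%). At an equal depth of 500 UMIs per barcode the shares were 2.44% in the mixed sample (1.84 to 3.17%) and 4.72% in the young sample (3.85 to 5.71%). Intervals here and below cover counting error only, and with 1 sample a group the difference between samples has no replicate check.

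Within the mixed sample the share differed between library codes by more than the counting error. It was 16.1% in FO1 (14 of 87 barcodes), 14.5% in FO2 (21 of 145) and 7.34% in FYB (81 of 1103). It was 3.35% in FYH (6 of 179) and 4.88% in F4W (2 of 41). No member was found in MY1 (0 of 246, which allows a share of up to 1.22%) or in MY2 (0 of 452, up to 0.664%). FO1 and FO2 thus had the highest shares, with intervals (9.09 to 25.5% and 9.19 to 21.3%) that overlapped those of CH1 and CH2, and the MY codes had the lowest.

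The 698 kept barcodes of MY1 and MY2 held 20 UMIs of the 5 rule genes, which restates the absence of members there. Their depth was not low, with medians of 968.5 UMIs in MY1 and 1087.5 in MY2. Without these codes the mixed share was 7.97% (6.68 to 9.43%), and its interval then overlapped that of the young sample.

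In the young sample the share was 11.8% in CH1 (98 of 830), 10.5% in CH2 (75 of 712) and 5.03% in Y2 (28 of 557). CH1 and CH2 lay within each other's intervals, and Y2 lay below both. The lanes of the mixed sample gave 59 and 65 members.

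**Figure D1:**
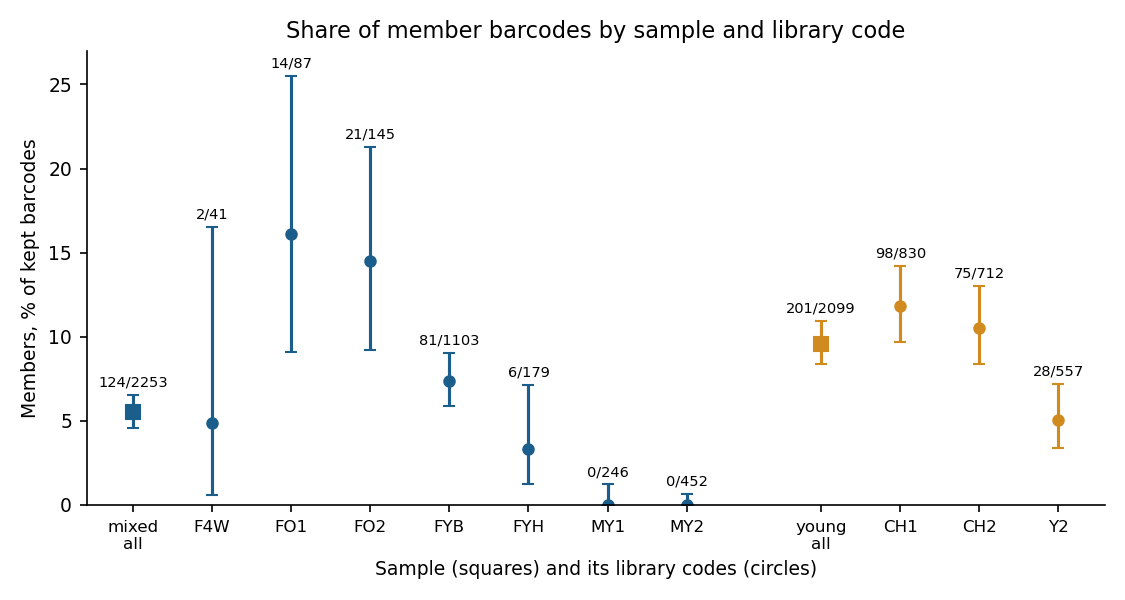
Member barcodes as a percentage of kept barcodes in each sample (squares) and each library code (circles), with exact 95% intervals and, for codes without members, the upper limit that a count of 0 allows. Numbers are members over kept barcodes. FO1 and FO2 had the highest shares, MY1 and MY2 had no member, and Y2 lay below CH1 and CH2.

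To ask which other genes went with the rule, counts were summed over members and over all other kept barcodes of each sample, and the 4 sums were compared with the sample as a block. The 5 rule genes were left out. Of 7663 genes tested, 148 (1.93%) were called higher and 699 (9.12%) were called lower in members, at an adjusted p under 0.05 and in the same direction in both samples. The genes that led the higher group encode a nucleoside enzyme, a folate enzyme, Notch pathway transcription factors, and a BMP and an ephrin ligand. They also encode a cell-surface immunoglobulin protein, an ion transporter and a PIWI protein. Cuticle proteins, papilins, opsins and genes of neuropeptide release were among the lower ones.

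The counts rest on 2 samples and move with their make-up. Without the sample as a block no gene was called in either direction, with 105 higher and 509 lower at an unadjusted p under 0.05. Without FYB, 88 genes were called higher and 337 lower, and without Y2 the counts were 82 and 458. With MY1 and MY2 both left out, a choice made after the data were seen, 255 were higher and 948 lower. DESeq2 in place of edgeR gave 44 higher and 184 lower, of which 43 and 184 were among those called here. Of all tested genes, 59.05% had the same direction in both samples.

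**Figure D2:**
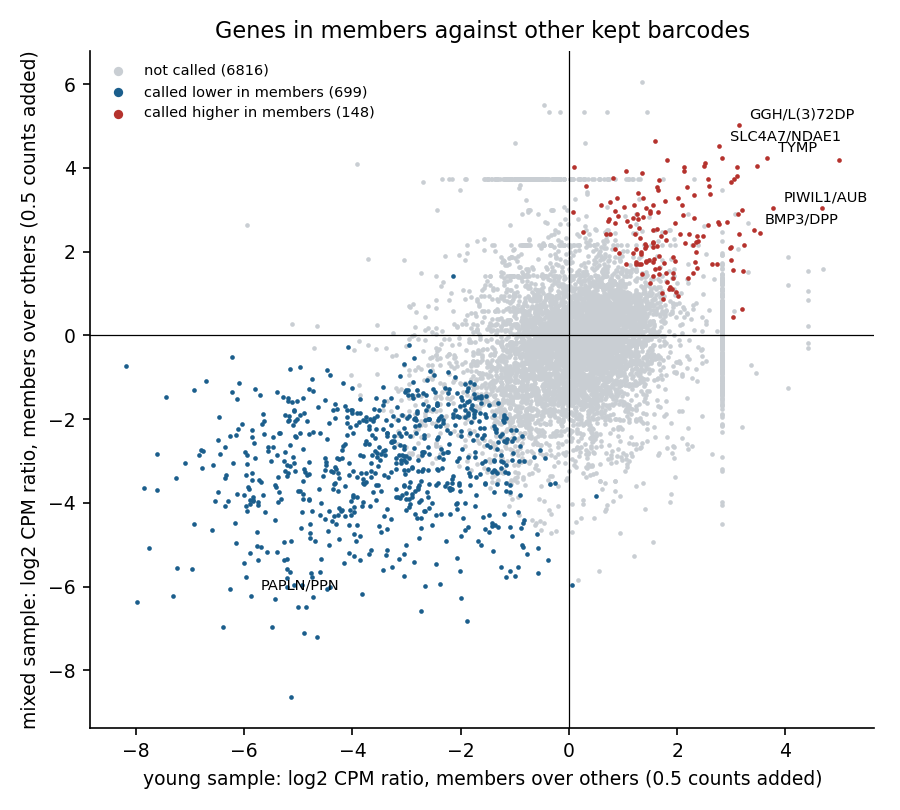
Each point is 1 of the 7663 genes tested, placed by its log2 ratio of CPM, members over other kept barcodes, in the young sample (horizontal axis) and in the mixed sample (vertical axis), with 0.5 counts added to every sum. Genes called higher in members (148) lie at the upper right and genes called lower (699) at the lower left; the straight rows of points are genes with few counts in a sum.

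TYMP (DAPMA1EVG017021), thymidine phosphorylase, which breaks thymidine down to its base, stood at 1177 CPM in mixed members against 62.3 CPM in the other mixed barcodes. In the young sample it stood at 577 CPM in members against 45.4 CPM in the others. The ratios were 18.9 (95% interval 15.4 to 23.3) in the mixed and 12.7 (9.81 to 16.6) in the young sample, with a log2 fold change of 4.01 (SE 0.59, adjusted p = 2.34e-09). The gene was carried by a minority of members: 39 of 124 mixed and 31 of 201 young members had a UMI, and the 10 barcodes with most UMIs held 53.9% of its counts in mixed and 71.5% of those in young members. FYB held 211 of its 228 counts in mixed members: without that code TYMP stood at 254 CPM in mixed members against 31.0 CPM in the others, a ratio of 8.17 (4.37 to 14.6).

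GGH/L(3)72DP (m000018F_a22.64), gamma-glutamyl hydrolase, which trims the glutamate tail of folates, had 155 CPM in mixed members against 4.64 CPM in the other mixed barcodes, and 140 CPM in young members against 15.8 CPM in the other young barcodes (log2 fold change 4.04, SE 0.58, adjusted p = 7.72e-10). It lies on the same contig as one of the rule genes, and whether neighbouring gene models share reads was not tested. GGH/L(3)72DP was seen in a minority of members, 13 of 124 mixed and 28 of 201 young. FYB held 4 of its 30 counts in mixed members. Without FYB its mixed ratio was 269 (26 counts in members against 2 in the others), against 33.4 with it. G6PC/G6P (DAPMA1EVG016407), glucose-6-phosphatase, the last step of glucose release, had 867 CPM in mixed members against 84.7 CPM in the other mixed barcodes. It had 728 CPM in young members against 146 CPM in the other young barcodes (log2 fold change 2.88, SE 0.57, adjusted p = 1.43e-05). FYB held 149 of its 168 counts in mixed members, and without that code the mixed ratio was 5.53 (3.15 to 9.28), against 10.2 with it. SLC37A4/CG3036 (DAPMA1EVG030788), the transporter that brings glucose-6-phosphate to that enzyme, was also called higher, at 6.06 times the other barcodes in the mixed and 2.17 times in the young sample (3.29 times in the mixed sample without FYB); it was picked after its values were seen.

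The receptor Notch and both E(spl) genes tested were higher in members. Notch signals through cleavage of the receptor, whose freed domain turns on the E(spl)/HES repressors. HES1/E(SPL)MBETA (a000024F_p16.52) had 428 CPM in mixed members against 68.1 CPM in the other mixed barcodes, and 605 CPM in young members against 88.7 CPM in the other young barcodes (log2 fold change 2.76, SE 0.54, adjusted p = 1.11e-05). HES1/E(SPL)M7 (m000024F_a15.56) had 382 CPM in mixed members against 71.9 CPM in the others, and 469 CPM in young members against 53.2 CPM in the others (log2 fold change 2.82, SE 0.53, adjusted p = 3.88e-06). Both lie on the same contig as GRIP. Without FYB the mixed ratio of HES1/E(SPL)M7 was 8.61, against 5.31 with it. The receptor NOTCH1/N (DAPMA1EVG027527) had 604 CPM in mixed members against 181 CPM in the others and 728 CPM in young members against 145 CPM in the others (log2 fold change 2.08, SE 0.54, adjusted p = 0.00203). FYB held 94 of its 117 counts in mixed members, and without that code the mixed ratio was 1.95 (1.21 to 2.99), against 3.34 with it. Of the 12 tested genes on the list of pathway genes, Notch was called higher and none was called lower, with a list median of -0.40 against -0.13 over all genes tested. The shares over all genes tested were 1.93% called higher and 9.12% called lower, and nothing is read from the counts of this list. The ligand DLL4/DL had no UMI in mixed members against 28.2 CPM in the others, and 115 CPM in young members against 246 CPM in the others, and did not pass the test (adjusted p = 0.0624).

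Among secreted and membrane-bound signals, BMP3/DPP (DAPMA1EVG021933), a BMP ligand whose fly counterpart patterns many tissues, had 114 CPM in mixed members against 20.1 CPM in the others, and 112 CPM in young members against 10.4 CPM in the others (5.65 and 10.8 times, adjusted p = 6.17e-06). Its call rests on FYB, which held 21 of its 22 counts in mixed members: without that code the adjusted p was 0.0744 and the mixed ratio 1.59 (0.0374 to 10.6). EFNB2/EPHRIN (DAPMA1EVG016955), the membrane ligand of Eph receptors, had 160 CPM in mixed members against 29.8 CPM in the others, and 336 CPM in young members against 29.1 CPM in the others (log2 fold change 3.04, SE 0.51, adjusted p = 1.57e-07). It was the 1 gene called higher among 22 tested on the list of axon guidance and adhesion genes. NCAM2/FAS2, a homophilic adhesion molecule of axons, was the 1 called lower, with 56.8 CPM in mixed members against 529 CPM in the others and 199 CPM in young members against 482 CPM in the others. With 1.93% of all genes tested called higher and 9.12% lower, nothing is read from the counts of this list.

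NEGR1/DIP (DAPMA1EVG021057), a cell-surface immunoglobulin protein of the family that pairs with Dpr proteins in the fly, was at 16.5 times the other barcodes in the mixed sample (10.5 to 26.0) and at 5.62 times in the young sample (3.57 to 8.78). The ratio was 25.2 in the mixed sample without FYH and 8.93 in the young sample without CH2. Its level was 243 CPM in mixed members against 14.7 CPM in the others, and 133 CPM in young members against 23.7 CPM in the others. Genes named for the Dpr partner were called higher too, NEGR1/DPR4 at 6.32 times in the mixed and 6.78 times in the young sample and NTM/DPR4 at 3.34 and 8.05 times. Both were chosen after their values were seen and rest on 8 to 21 counts in a member sum. With 1 code left out NEGR1/DPR4 reached 11.5 times in the mixed sample (without FYB) and 4.43 to 12.2 times in the young sample (without CH1 and without CH2), and NTM/DPR4 reached 6.44 times in the mixed sample (without FYH).

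Of transcription factors, BARHL1/B (DAPMA1EVG023668), a homeobox gene of the Bar family, had 51.6 CPM in mixed members against 5.03 CPM in the others, and 59.5 CPM in young members against 9.86 CPM in the others (log2 fold change 2.95, SE 0.64, adjusted p = 0.000107). It shares a contig with one of the rule genes. Its 10 counts in mixed members all came from FYB, and 14 of its 17 counts in young members came from Y2, without which its young ratio was 9.75 (3 counts in members, interval 1.12 to 117). It was without a UMI in the members of 2 of the 6 codes with at least 10 members, and was not called with DESeq2 (adjusted p = 0.234). HOXA7/ANTP, the Hox gene of the fly thorax, picked after its values were seen, was at 5.31 times the other mixed barcodes and 4.64 times the other young barcodes (9.54 times in the mixed sample without FYB). NR1H3/ECR (DAPMA1EVG014763), the ecdysone receptor, had 1161 CPM in mixed members against 344 CPM in the others, and 731 CPM in young members against 309 CPM in the others (adjusted p = 0.0464). It was the 1 gene called higher among 13 nuclear receptors tested, and NR2E1/TLL, a repressor of the brain, was the 1 called lower. With 1.93% of all genes tested called higher and 9.12% lower, nothing is read from these list counts. NR2E1/TLL had no UMI in members, against 33 counts in the other mixed and 56 in the other young barcodes. Its interval in the mixed sample (0 to 1.58) held equality.

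SLC4A7/NDAE1 (DAPMA1EVG015083), a sodium-coupled bicarbonate transporter, had 196 CPM in mixed members against 8.51 CPM in the others, and 94.5 CPM in young members against 13.8 CPM in the others (log2 fold change 3.69, SE 0.58, adjusted p = 2.03e-08). KCNAB2/HK, a beta subunit of voltage-gated potassium channels, was at 7.35 times the other mixed and 4.29 times the other young barcodes. It was the 1 gene called higher among 13 ion channel genes tested, against 1.93% of all genes tested, and nothing is read from this count. PDE8B/PDE8 (DAPMA1EVG011221), a phosphodiesterase that breaks down cyclic AMP, was at 6.47 and 7.56 times the other barcodes; it shares a contig with ROR. PNLIPRP2/CG5966 (DAPMA1EVG022984), of the pancreatic lipase family, was at 11.8 and 5.99 times. NWD2/CG10132 (DAPMA1EVG034245) was at 13.9 and 8.62 times. Without FYB the mixed ratios were 6.15 (3.13 to 11.4) for PNLIPRP2/CG5966 and 6.72 (3.30 to 12.8) for NWD2/CG10132.

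PIWI proteins bind the small RNAs that silence transposons, mostly in the germline. Of the gene models named PIWIL1/AUB, DAPMA1EVG018108 had 114 CPM in mixed members against 13.9 CPM in the others, and 143 CPM in young members against 10.4 CPM in the others (log2 fold change 3.45, SE 0.57, adjusted p = 1.04e-07). DAPMA1EVG018095 had 790 CPM in mixed members against 71.6 CPM in the others, and 875 CPM in young members against 280 CPM in the others (adjusted p = 0.000212). Another, DAPMA1EVG018783, was lower, with 25.8 CPM in mixed members against 227 CPM in the others and 31.5 CPM in young members against 63.1 CPM in the others (adjusted p = 0.00946). TDRD1/TUD, a Tudor protein that works with PIWI proteins, was lower as well, with 31.0 CPM in mixed members against 434 CPM in the others and 3.50 CPM in young members against 23.7 CPM in the others. Near-identical copies may share reads, so the values of single AUB models are uncertain. Without FYB the mixed ratio of DAPMA1EVG018108 was 25.3, against 8.15 with it. That of DAPMA1EVG018783 was 0.0408 without FYB and 0.196 without MY2, against 0.114, and its young ratio was 0.861 without CH1 and 0.10 without CH2, against 0.499. That of TDRD1/TUD was 0.157 without MY2, against 0.0714, and its young ratio 0.235 without CH1, against 0.148. Of the 9 germline genes tested, 2 were called higher and 2 lower, against 1.93% and 9.12% of all genes tested. All of these calls but that of TDRD1/TUD are models named PIWIL1/AUB, so the list counts may not be of independent genes and are not read.

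Further genes among the 148 were picked after their values were seen. Of cell-surface and matrix genes, GPC5/DALLY, a glypican that binds BMP and Wnt ligands in the fly, had 2209 CPM in mixed members against 556 CPM in the others, and 2516 CPM in young members against 996 CPM in the others (adjusted p = 0.0425). DAG1/DG, dystroglycan, a receptor for basement membrane laminin, had 1043 CPM in mixed members against 273 CPM in the others, and 1207 CPM in young members against 478 CPM in the others (adjusted p = 0.0292). Both were thus higher by 2.53 to 3.97 times. Without FYB the mixed ratio of GPC5/DALLY was 9.03.

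Of genes for lipid and small-molecule transport, FABP3/FABP, a fatty acid binding protein, had 3241 CPM in mixed members against 378 CPM in the others, and 2841 CPM in young members against 1228 CPM in the others (adjusted p = 0.00948). SLC16A8/MCT1, of the monocarboxylate transporter family, had 145 CPM in mixed members against 32.9 CPM in the others, and 504 CPM in young members against 53.7 CPM in the others (adjusted p = 5.25e-06). The ratio of FABP3/FABP was larger in the mixed sample (8.58 against 2.31 in the young) and that of SLC16A8/MCT1 in the young sample (4.40 in the mixed against 9.38). A2ML1/TEP2, a thioester protein of the alpha-2-macroglobulin family known from fly immunity, was also called higher (592 counts in mixed members against 1013 in the others, and 414 in young members against 1041 in the others). Without FYB the mixed ratios were 19.1 for FABP3/FABP, 8.04 for SLC16A8/MCT1 and 11.9 for A2ML1/TEP2, against 7.80 with FYB for the last.

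The remaining named genes with a symbol were FN1 or SEPT5/SEP4 (DAPMA1EVG013951), at 5.18 times the other mixed and 5.57 times the other young barcodes, and JMJD7/JMJD7 (DAPMA1EVG022988), at 5.10 and 5.16 times (8.09 times in the mixed sample without FYB). Of the genes without a symbol, DAPMA1EVG011278 had 1208 CPM in mixed members against 96.3 CPM in the others, and 1015 CPM in young members against 127 CPM in the others. It was detected in 59.7% of mixed and 57.2% of young members, against 7.14% and 8.22% of the others, and lies on the contig of ROR. DAPMA1EVG015527 had 181 CPM in mixed members against 22.1 CPM in the others, and 612 CPM in young members against 23.7 CPM in the others. FO1 held 27 of its 35 counts in mixed members, and without that code it had 45.9 CPM in mixed members against 19.6 CPM in the others, a ratio of 2.35 (0.959 to 4.99), against 8.19 with it. Its mixed ratio was 23.8 without FYB, and its young ratio was 15.1 without CH1, against 25.9. The other 4 (DAPMA1EVG032641, DAPMA1EVG018074, DAPMA1EVG019198 and m000002F_s14.23) were at 4.58 to 13.3 times the others in the mixed and 5.07 to 8.87 times in the young sample. Without FYB the mixed ratios of DAPMA1EVG019198 and m000002F_s14.23 were 24.8 and 12.1. In all, the ratio of 14 of the 22 leading genes moved by over 1.5 times in a sample when 1 code was left out, 13 in the mixed and 3 in the young sample.

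**Figure D3:**
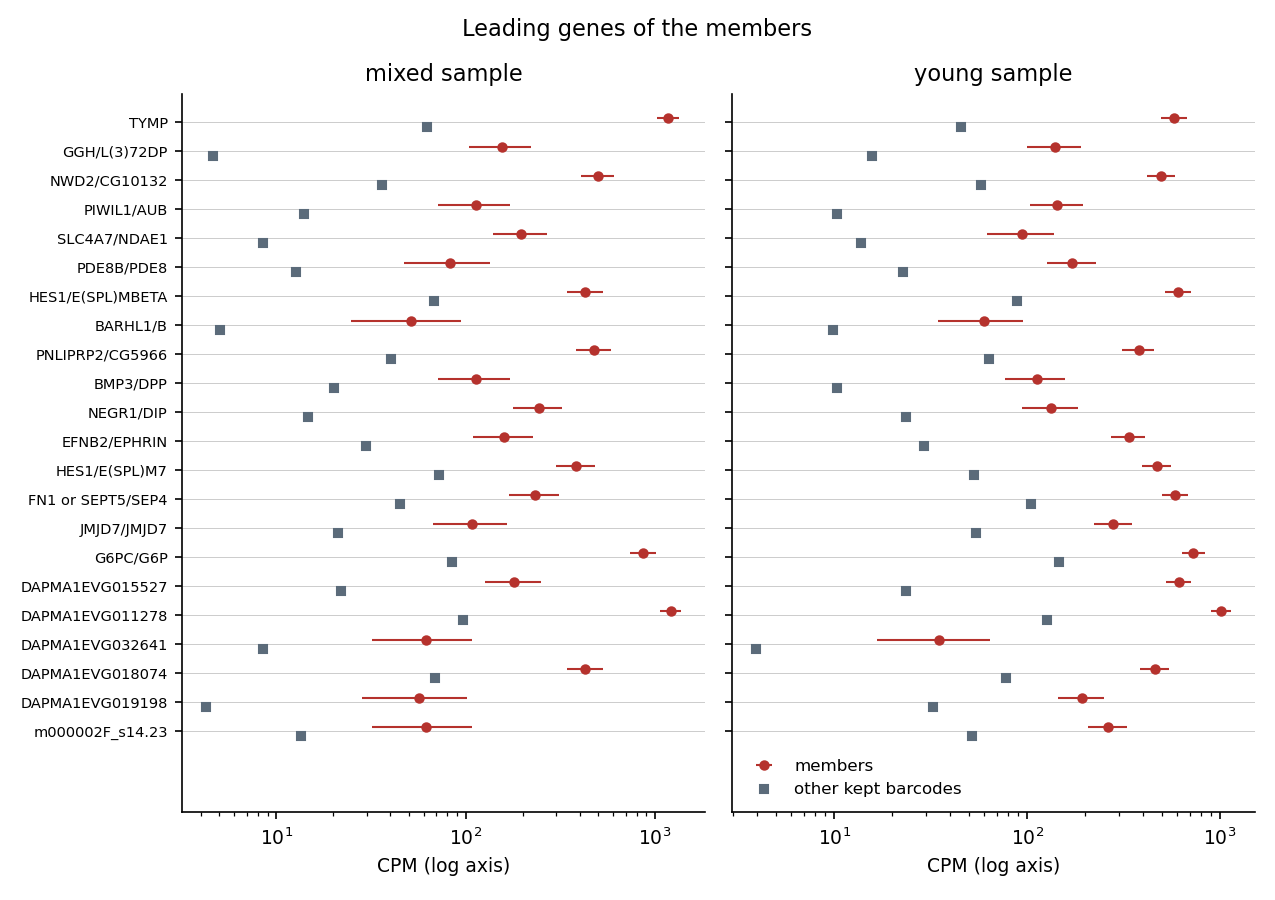
CPM (log axis) of the 22 leading genes in the sums of members (circles, with exact Poisson 95% intervals) and of other kept barcodes (squares), in the mixed sample (left) and the young sample (right). Members lie above the others for every gene in both samples, by 4.58 times or more.

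The 22 leading genes tracked the number of rule genes in a barcode, also among barcodes that did not meet the rule. In the mixed sample their summed level was 590 CPM in barcodes without a rule gene, 2011 CPM with 1 rule gene, 5885 CPM with 2 and 9589 CPM with 3 or more. In the young sample it was 804, 2486, 6873 and 8943 CPM. None of these intervals overlapped within a sample. The genes were chosen from the same barcodes, so the steps are a description.

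**Figure D4:**
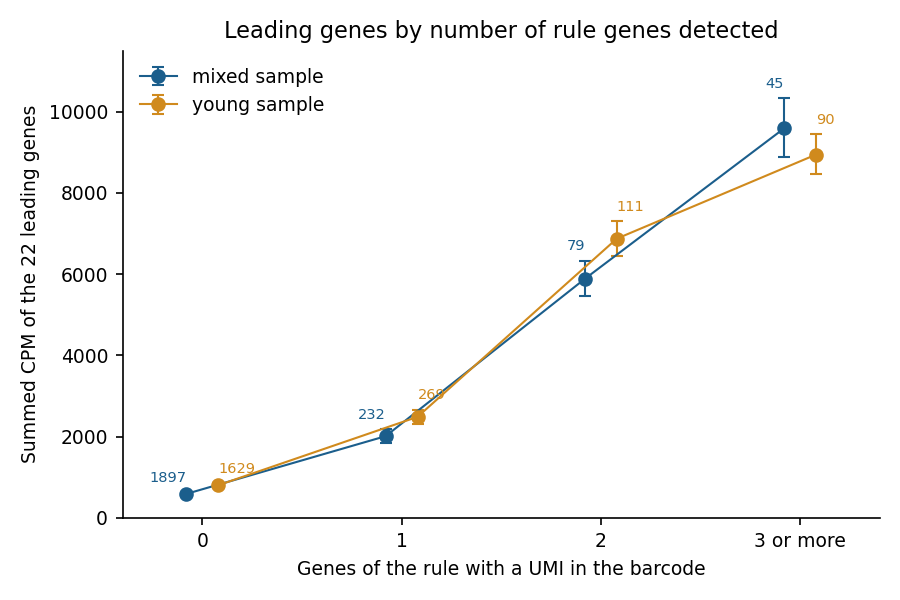
Summed CPM of the 22 leading genes, with exact Poisson 95% intervals, by the number of rule genes with a UMI in a kept barcode; numbers beside the points are barcodes. The points run from 590 CPM without a rule gene to 9589 CPM with 3 or more in the mixed sample, and from 804 to 8943 CPM in the young sample.

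Members did not carry the leading genes evenly. The 22 genes were chosen by their ratios in these barcodes, and the counts are at full depth, where members were deeper. The contrasts with the other barcodes are therefore a description and carry no test. At least 5 of the 22 were detected in 64 of 124 mixed members (51.6%) against 22 of 2129 other mixed barcodes (1.03%), and in 121 of 201 young members (60.2%) against 47 of 1898 other young barcodes (2.48%). None of the 22 was detected in 2 mixed and 7 young members. Across codes the summed level in members ran from 2490 CPM in the 6 members of FYH to 10023 CPM in the 28 members of Y2, against 466 CPM (MY1) to 1224 CPM (CH2) in the other barcodes. In the barcodes of at least 100 but under 300 UMIs it was 703 CPM in the mixed and 434 CPM in the young sample. Of the 22 genes, 20 were higher in members in each of the 6 codes with at least 10 members; the exceptions were BARHL1/B (4 codes) and BMP3/DPP (5 codes).

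Over all genes tested, 1.93% were called higher and 9.12% lower. In lists as short as those of neurons and neurosecretion, the lack of a higher call is near that share and is not read. Of 15 neuron genes tested, none was called higher and SYN1/SYN, SYN2/SYN and RIMS2/RIM, which act at synaptic vesicles and their release sites, were called lower; the list median was -0.65 on the log2 scale. RAB3C/RAB3, the vesicle GTPase, had no UMI in members, against 287 counts in the other mixed and 226 in the other young barcodes, so it was at least 7.17-fold lower in mixed and at least 10.6-fold lower in young members (floor of 3 counts a sum). RAB3C/RAB3 lies on the contig of ROR. SYT1/SYT1 and STX1A/SYX1A did not pass the test, with 335 CPM and 114 CPM in mixed members against 572 CPM and 96.7 CPM in the others.

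Of 8 genes for neuropeptide processing and release, 5 were called lower, against 9.12% of all genes tested. They included SCG5/7B2, a chaperone of prohormone convertase, with 0 counts in mixed members against 326 in the others and 1 count in young members against 114 in the others. PAM/PHM, which amidates peptides, had 10.3 CPM in mixed members against 161 CPM in the others, and 24.5 CPM in young members against 120 CPM in the others (adjusted p = 9.83e-05). Of 6 genes for transmitter synthesis and transport, 4 were called lower, among them DDC/TDC2 and the vesicular glutamate transporter SLC17A6/VGLUT. SLC17A6/VGLUT had no UMI in members, but also few counts in the others, 62 in the mixed and 29 in the young sample. One of the 4, NPAS3/TRH, shares its fly symbol with an enzyme but carries the human name of a transcription factor.

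None of the 10 genes tested on the list of glutamate receptors and scaffolds was called in either direction, with a list median of -0.68. With 1.93% of all genes tested called higher and 9.12% lower, this lack of calls is not read. GRM7/MGLUR, a metabotropic receptor, had 243 CPM in mixed members against 50.7 CPM in the others, but 35.0 CPM in young members against 61.1 CPM in the others (adjusted p = 0.324). GRIN1/NMDAR1 had 0 counts in mixed and 1 count in young members.

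Castor and traffic jam are known from neural progenitors and the gonad. Of 14 neural progenitor and temporal factors tested, none was higher, and GRHL1/GRH and PROX1/PROS were called lower (list median -0.62). Of 7 somatic gonad and follicle genes, FAS3 was called lower and none higher (list median 0.04). With 1.93% of all genes called higher and 9.12% called lower, lists of this size hold about as few calls as the background gives, and nothing is read from them. Of 7 glial genes none was called, and of 18 Wnt and planar polarity genes, the pathway of ROR, none was called either (list medians -0.89 and -0.12). LRP6/ARR, a Wnt co-receptor, had 857 CPM in mixed members against 473 CPM in the others, and 1837 CPM in young members against 608 CPM in the others, and did not pass the test (adjusted p = 0.144).

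Of 14 muscle genes 5 were called lower, none higher and 9 did not pass, and of 21 hemocyte and basement membrane genes 8 were lower, none higher and 13 did not pass, against 9.12% called lower over all genes. Of the hemocyte list, COL4A5/COL4A1 (DAPMA1EVG029557) was at 1.44 times the others in mixed and 0.753 times in young members, and did not pass. PAPLN/PPN (DAPMA1EVG018391), papilin, an extracellular matrix protein known from fly hemocytes, had 2 counts in mixed members against 2485 in the other mixed barcodes and 6 counts in young members against 2721 in the other young barcodes (log2 fold change -6.18, SE 0.75, adjusted p = 2.8e-13). Its young ratio was 0.0379 without CH2 and 0.0074 without Y2, against 0.0157. Of 8 photoreceptor genes, 2 opsins named OPN4/RH2 were called lower and 6 did not pass; DAPMA1EVG025431 had 2 counts in mixed members against 918 in the others, and 0 counts in young members against 51 in the others.

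Cuticle protein genes of the CPR family, a list drawn up after the data were seen, were lower for 17 of 21 genes tested and higher for none. Their median log2 fold change was -4.47. Of 13 chitinase genes, listed in the same way, 5 were lower. The share called lower over all genes tested was 9.12%. Lower did not mean absent for every cuticle gene: DAPMA1EVG004278 was seen in 48.3% of young members, against 47.6% of the other young barcodes (437 against 1441 CPM). DAPMA1EVG029406 had 361 CPM in mixed members against 601 CPM in the others. The other named lower genes were LRRC15/HAF, CLCA4, TMPRSS11D/L(2)K05911 and NOX5/NOX. CLCA4, TMPRSS11D/L(2)K05911 and NOX5/NOX had no UMI in any member. TMPRSS11D/L(2)K05911 was seen in only 52 of 2129 other mixed and 26 of 1898 other young barcodes. FYB held 317 of its 320 counts in the other mixed barcodes. CLCA4 was seen in 54 other mixed and 57 other young barcodes, so both genes were confined to few barcodes. NOX5/NOX, an oxidase that makes superoxide, was seen in 228 and 97 of the others and lies on the contig of ROR. It was thus at least 13.1-fold lower in mixed and at least 7.18-fold lower in young members. LRRC15/HAF had 0 counts in mixed members against 834 in the others and 1 count in young members against 894 in the others.

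Transcripts of cytosolic ribosomal proteins took 8.04% of UMIs in mixed members against 5.72% in the other mixed barcodes, and 9.35% in young members against 4.07% in the other young barcodes. The list median was 0.91 on the log2 scale, while 1 of 64 genes, RPS20/RPS20, passed the test and none was lower. Shares over all genes tested were 1.93% called higher and 9.12% called lower. Mitochondrially encoded transcripts took 0.629% in mixed members against 0.487% in the others, and 0.515% in young members against 1.14% in the others. The part of these levels in the other differences was not tested.

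**Figure D5:**
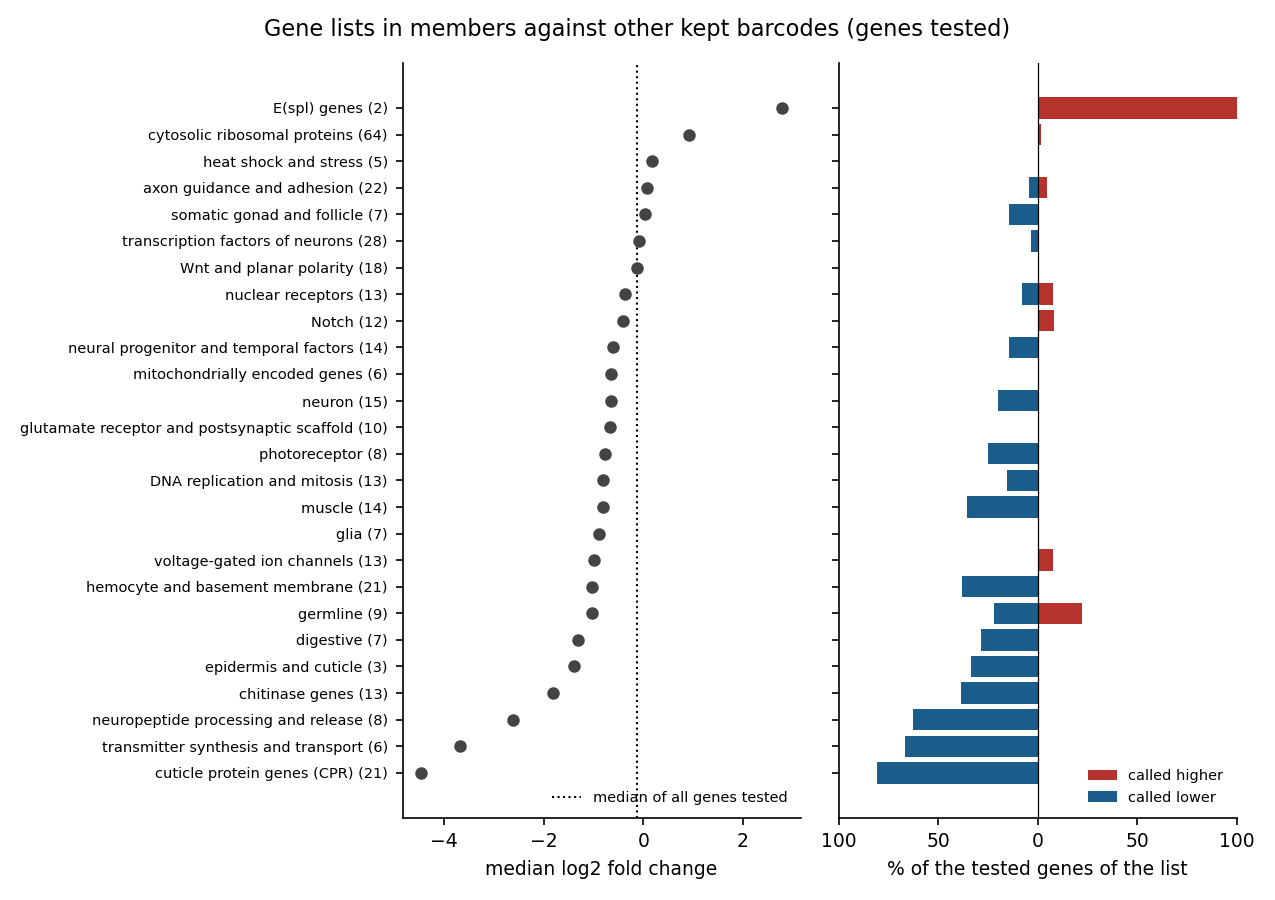
Gene lists in members against other kept barcodes, with the number of tested genes of each list in brackets. Left, median log2 fold change of the list, with a dotted line at the median of all genes tested (-0.13); right, the percentage of the list called higher (right of 0) or lower (left of 0). The E(spl), cuticle protein, chitinase, ribosomal and mitochondrial lists were made after the data were seen.

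The members of both samples were then set against each other. With 1 sample each this describes these libraries and gives no test. Of 3889 genes with at least 20 counts over both member sums, 193 (4.96%) were at least 4-fold higher and 379 (9.75%) at least 4-fold lower in mixed than in young members. The same genes often differed in the other barcodes: 84 of the 193 (43.5%) and 278 of the 379 (73.4%) passed 4-fold in the same direction there. Without FYB the counts were 94 and 169, and without CH1 the lower count was 246. Of the 22 leading genes, m000002F_s14.23 alone passed 4-fold, with 61.9 CPM in mixed members and 262 CPM in young members. TYMP was at 2.04 times in mixed against young members (1.66 to 2.51) and at 1.37 times in the other barcodes, and without FYB the direction turned, to 0.439 times (0.250 to 0.725) in members and 0.684 times in the others. EFNB2/EPHRIN was at 0.476 times in mixed against young members and at 1.02 times in the other barcodes, and without FYB at 0.577 times in members (0.297 to 1.03). Without FYB m000002F_s14.23 was at 0.398 times in mixed against young members, short of 4-fold.

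A few genes of DNA replication differed between the samples in members. TOP2A/TOP2, the topoisomerase of chromosome replication and segregation, had 17 counts (87.7 CPM) in mixed members and 90 counts (315 CPM) in young members. In the other barcodes it was the reverse, with 521 CPM in the mixed and 116 CPM in the young sample. MCM6/MCM6, a subunit of the replicative helicase, had 3 counts in mixed and 25 counts in young members, and FEN1/FEN1, which trims the lagging strand, had 4 counts in mixed and 26 in young members. The high level of the other mixed barcodes sat in MY1 (1148 CPM of TOP2A/TOP2) and MY2 (1246 CPM), the codes that held no member; without them it was 137 CPM. MCM6/MCM6 without these codes had 24.7 CPM in the other mixed and 42.9 CPM in the other young barcodes, the direction seen in members. FEN1/FEN1 is not on the list of DNA replication and mitosis genes and was not named by a rule. In the other mixed barcodes it had 125 CPM, and 36.7 CPM without these codes, against 30.6 CPM in the other young barcodes. Other genes of the list differ from TOP2A/TOP2: AURKA/AURA was lower in the mixed sample in members (20.6 CPM against 213 CPM in young members) and in the others (146 against 404 CPM), and CCNB1/CYCB was higher in the mixed sample in members (294 CPM against 231 CPM in young members) and in the others (939 against 650 CPM). Of the 13 tested genes of DNA replication and mitosis, AURKA/AURA and CCNB1/CYCB were called lower in members of both samples and none was called higher. The shares over all genes tested were 9.12% called lower and 1.93% called higher, so nothing is read from these list counts. Of the 57 counts of CCNB1/CYCB in mixed members, 56 came from FYB, so its higher level in mixed than in young members rests on that code. Without FYB its ratio to the other mixed barcodes was 0.0168, against 0.313. The mixed ratio of AURKA/AURA was 0.0571 without FYB and 0.318 without MY2, against 0.141.

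GLUL/GS2, glutamine synthetase, had 5306 CPM in mixed members against 1012 CPM in the other mixed barcodes, and 1536 CPM in young members against 1923 CPM in the other young barcodes. Without MY1 and MY2, which held no member, the mixed ratio was 3.58, against 5.24 with them. FYB held 816 of the 1028 counts in mixed members. By code the mixed ratio ran from 1.34 in FO1 (0.913 to 1.93) to 4.08 in FYB (3.75 to 4.43). Within the young sample the direction differed by code: members were at 3.60 times the others in Y2 (2.87 to 4.49), 0.684 times in CH2 and 0.507 times in CH1. Without CH1 the young ratio was 1.06, against 0.799 with it. ARRB2/CG32683, an arrestin, had 929 CPM in mixed members against 20.5 CPM in the others and 77.0 CPM in young members against 107 CPM in the others. Of its 180 counts in mixed members, 179 came from FYB, so the level in mixed members is nearly that of 1 library code.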

How the data were processed

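The deposited files of each sample hold whole-number UMI counts by gene and barcode, with a library code for each barcode. The aligner, genome build and UMI handling are not given in the sources used here. The lists hold 48846 mixed and 442368 young barcodes. Counts of gene names that end in the same identifier were added, which left 19891 of 33957 names. Of these identifiers 0 matched the RefSeq gene table of the species, so names come from the files. Barcodes with at least 500 UMIs were kept. Members, gene lists and tests were chosen with earlier results of these data known. One of the 5 rule genes is not reported here.

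Counts were summed per sample over members and over other kept barcodes and tested with edgeR 4.0.16 (R 4.3.3): TMM scaling, filterByExpr, the quasi-likelihood test with the sample as a block and Benjamini-Hochberg adjustment over all 7663 genes tested. The 4 sums leave 1 residual degree of freedom, and barcodes were not used as replicates. Nothing in the labels says how many cultures stand behind a sample, so p-values measure the spread between these sums only. Genes named by rule were the 16 with and the 6 without a symbol whose smaller ratio of both samples was highest, among genes called higher with at least 10 counts in each member sum, the 6 with a symbol whose larger ratio was lowest among genes called lower, and called genes of the lists. Lists were matched by fly symbol, and some symbols belong to models with another human name. The fit was tested on simulated counts with the same dispersion (0.08) for every gene. Counts gathered in few barcodes or in 1 library code were not simulated. Of 100 genes set 4-fold higher in members 72 were recovered, and of 100 set 4-fold lower 44 were. Of 7969 unchanged genes 3 were called, a rate that need not hold for the real sums. A gene that did not pass may thus still differ. Ratios have exact conditional 95% intervals, and a sum without counts was set to 3 counts for a bound. The alternatives were DESeq2 1.42.0, its scaling in edgeR, no filter, sums per library code, no sample block, other minimum UMIs, other forms of the rule, depth weights and each code left out. Sexes, ages and body parts were not compared, since the codes are not spelled out.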

Additional observations from a re-analysis of the deposited data

Results flagged for a closer look

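Of 252 listed genes tested, 5 differed at least 2-fold between members and others in opposite directions in the samples, with intervals that excluded equality in both; the difference between the samples was not tested, since each has 1 member sum. KCNB2/SHAB, a voltage-gated potassium channel, was at 3.86 times the others in mixed and 0.268 times in young members, and 2058 of its 2778 counts in the other young barcodes came from Y2; in CH1 and CH2 the ratios were 0.783 and 0.779. VANGL2/VANG, a planar polarity protein, was at 0.413 times in mixed and 2.12 times in young members, with 6 and 20 counts. GPR84/MOODY was at 2.24 times in mixed and 0.181 times in young members; 24 of its 30 counts in mixed members came from FYB, without which the mixed ratio was 1.36 (0.487 to 3.08), and in FO1 and FO2 it was 0.519 and 0.647. TOP2A/TOP2 was at 0.168 times in mixed and 2.72 times in young members, and MCM6/MCM6 at 0.110 and 2.04 times; without MY1 and MY2 the mixed ratios were 0.640 (0.366 to 1.05) and 0.628 (0.124 to 1.97), so both intervals then held equality. The young ratio of MCM6/MCM6 was 1.14 without CH1 (0.523 to 2.23).

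Barcodes of at least 300 but under 500 UMIs were left out of every comparison. Of these, 21 of 1711 in the mixed sample (1.23%) and 25 of 2920 in the young sample (0.856%) met the rule. Their leading genes summed to 5788 CPM in the mixed and 7026 CPM in the young sample, against 907 and 677 CPM in the barcodes of that size that did not meet it.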

How the results depend on the processing

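Counts of genes called moved more than the named genes. The 28 named genes had the most extreme ratios among called genes in these same barcodes, so keeping direction and call was largely set beforehand. DESeq2 gave 44 higher and 184 lower genes in members, against 148 and 699, and the fit without a sample block gave 0 and 0 (105 and 509 at an unadjusted p under 0.05). The rule without ROR gave 69 and 406, the rule without TJ gave 86 higher, sums per library code gave 285 lower among 2097 tested, and leaving out MY1 and MY2 together gave 255 higher. With 1 code left out, the counts ran from 82 to 148 higher and from 337 to 689 lower. Of 400 values of the 28 named genes under other settings, 394 kept direction and call, 6 kept direction alone and 0 reversed; without a sample block none of the 28 passed. With codes left out, 277 of 278 kept both. A named gene that was not tested under a setting gave no value there, so such cases are not in the 400 or the 278. For BARHL1/B the adjusted p was 0.0607 with at least 3 rule genes and 0.0785 without GRIP. The cause was not tested.

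The share of members in the mixed and the young sample was 3.66% and 4.50% at a minimum of 300 UMIs, 8.22% and 17.0% at 1000 UMIs, 1.997% and 4.29% with at least 3 rule genes, and 2.44% and 4.72% after thinning. With CAS, GRIP or ROR taken out of the rule it was 4.57%, 4.08% and 4.13% in the mixed sample and 6.67%, 8.34% and 8.29% in the young sample, and 8.05% in the young sample without TJ. With the remaining rule gene taken out it was 2.80% and 5.96%. Without MY1 and MY2 the mixed share was 7.97%. With 1 code left out it ran from 3.74 to 6.89% in the mixed and from 8.12 to 11.2% in the young sample. It was lower in the mixed sample in 10 of 10 settings.

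At a minimum of 50 counts, 74 genes were 4-fold higher and 150 lower in mixed than in young members, and with 1 code left out 94 to 204 and 169 to 390. At a minimum of 1000 UMIs the difference in median genes per thinned barcode between mixed members and others was -17, against 1.5. Leaving out MY1 and MY2, and dividing ratios by their median, were chosen after the data were seen; that division left the counts at 193 and 379. No paired analysis was possible because the labels give no replicate numbers to pair the mixed and the young sample by; the sample block pairs members with the others of their own sample. With 1 sample a group, differences between samples cannot be told apart from differences between libraries.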
